A study of Macaca nemestrina with 15 samples.

Results

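The Rfam-named features are rows of the count table that carry no gene symbol but the accession of an RNA family in the Rfam database of structured non-coding RNAs, such as RF00069 for a family of small nucleolar RNAs. A number after a point, as in RF00004.31, only tells apart the annotated copies of a family. Of 28865 features in the table, 5271 bear such a name and belong to 425 families. The members described here are the rows with at least 10 counts in at least 5 of the 15 libraries, which left 55 rows from 45 families. They were thus chosen by their counts in these libraries, and RF00069 was chosen in addition on its pattern over the time points, so its values are a description with no test. Just inside the rule stood RF00024, RF00218 and RF00410.5, for which the fifth highest count was 10, and just outside it RF00091.3, RF00016.4 and RF00493.1, for which it was 9. No member passed the rule through a single time point only.

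The libraries came from peripheral blood mononuclear cells (PBMCs), the lymphocytes and monocytes of blood, of 5 female pig-tailed macaques (*Macaca nemestrina*). All 5 animals received 30 mg/kg of oral islatravir (ISL), a nucleoside reverse transcriptase translocation inhibitor, by gavage once a week for 12 weeks, and no untreated group was sequenced. Each animal gave a library before the first dose (pre-treatment), at week 12 of dosing (week12) and in week 18, after dosing had stopped (week18). Every comparison thus sets libraries of the same 5 animals against each other. The dates in the library names place these samples 0, 56 to 57 and 84 days after the first, and Z15303, Z15339 and Z15408 share their dates while the other 2 animals have their own. These intervals are shorter than the week numbers of the labels would give. The authors' methods place the last sample at week 18, while the legend of their design figure gives an earlier week. These differences were not resolved here, and the time points are called by their labels. The animals' ages are not given in the sources used here.

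Most RNAs of the classes named here carry no poly(A) tail. The spliceosomal RNAs U1, U2 and U4 act in the spliceosome, which removes introns from precursor messenger RNA, and the signal recognition particle (SRP) RNA is the scaffold of the particle that brings ribosomes to the endoplasmic reticulum. C/D box snoRNAs guide 2′-O-methylation and H/ACA box snoRNAs guide pseudouridylation of ribosomal RNA, and in mammals both kinds are mostly cut out of the introns of other genes. 7SK RNA holds the transcription elongation factor P-TEFb inactive, Y RNAs bind the Ro60 protein, and telomerase RNA carries the template for telomere repeats. The cDNA was made with SMART-Seq v4, which primes on poly(A), from total RNA. In the table, reads from a mature small RNA and reads from a longer transcript that overlaps its row cannot be told apart. Likewise, less RNA per cell and fewer cells of a type cannot be told apart in bulk PBMCs.

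Coverage was thin. Libraries held 5610597 to 10379572 counts (median 8871860), of which 0.0248% to 0.116% (median 0.0341%) fell on Rfam-named rows and 0.0199% to 0.0902% on the members. The members took 38409 of the 50175 counts on all Rfam-named rows (76.55%), while 3921 of the 5271 rows had no count in any library. The median member had 217 counts over all 15 libraries and a median of 15 counts per library, and 15 of the 55 members reached 10 counts in every library. The 5 members with the most counts held 50.5% of the members' counts. Levels below are CPM, read counts relative to a library total scaled by edgeR's TMM method, and since no lengths were used they are compared between libraries and not between features.

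By accession, 25 members fell in one of the classes listed for this work. The largest class by counts was 5.8S ribosomal RNA with 7297 counts on 2 rows, of which RF00002.4 alone held 6916. The 4 annotated Y RNA copies (RF00019) held 4987 counts, 5 spliceosomal RNA rows of U1 (RF00003), U2 (RF00004) and U4 (RF00015) held 4921, and 5 C/D box snoRNA rows, among them U3 (RF00012), held 2849. The 4 SRP RNA copies (RF00017) held 1473, 1 copy of 7SK (RF00100) 522, 3 H/ACA box rows 512 and telomerase RNA (RF00024) 127. The other 30 members have accessions outside the classes listed for this work and are left unnamed. Further RNAs of the listed kinds may be among them. The 30 unnamed members held 15721 counts, 40.9% of the members' total. Families with many annotated copies were mostly silent row by row. The 1191 rows of U6 (RF00026) held 918 counts and the 689 rows of 5S ribosomal RNA (RF00001) held 402, and neither family had a row that passed the rule. Reads that fit several copies are not counted by STAR, so the level of a copy is uncertain where a family has near-identical copies, as for the Y, U1, U2, U4, SRP and 7SK RNAs.

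One animal stood apart, and this touches most values that follow. The week12 library of Z15303 had the highest share of counts on the members, 0.0902%, and the lowest total count, 5610597. The week18 library of the same animal came next with 0.0555% and a total of 5886482. In all other libraries the share on the members was 0.0199% to 0.0371%. Summed over the 55 members, CPM was 932 in the week12 library of Z15303 and 580 in its week18 library, against 380 before treatment in the same animal and 195 to 293 in the 12 libraries of the other animals. Of the 55 members, 30 (54.5%) were highest in that one week12 library, which was the highest library for 13.7% of all features tested. Another 6 members (10.9%) were highest in the week18 library of Z15303, near the 10.6% of all features tested that were highest there. The plot of summed CPM by RNA class shows that the excess in Z15303 was spread over most classes.

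**Figure D1:**
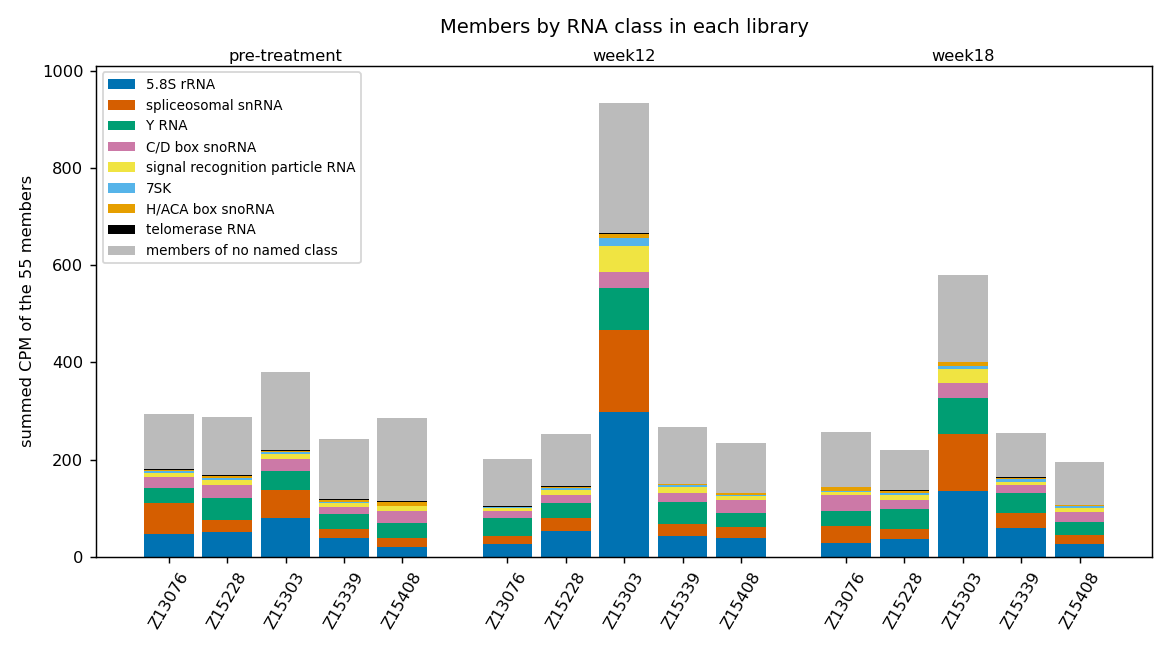
Summed CPM of the 55 members in each of the 15 libraries, stacked by RNA class, with the animals on the x axis grouped by time point. The bars of Z15303 reach 932 CPM at week12 and 580 at week18, above every library of the other animals.

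The excess in Z15303 was not even among the members. Relative to the median of the other 14 libraries, its week12 library was 18.8-fold higher for RF00017.330 and 13.8-fold higher for RF00017.332, both SRP RNA copies, 9.47-fold for RF01871, 7.93-fold for the U2 row RF00004.31 and 7.38-fold for the 5.8S row RF00002.4. In all, 27 members were more than 2-fold above that median. At the other end, RF00410.5 stood at a ratio of 0.186, RF02196 at 0.222 and RF00069 at 0.491. RF00016.5 had no count there, which does not exclude an expected count of up to about 3. The members most even over the 15 libraries were the Y RNA copy RF00019.623, with a coefficient of variation of 13.2% between 10.3 and 17.3 CPM, RF01892 with 18.2% and RF02170 with 22.8%. Over the members the median coefficient of variation was 55.8% with all 15 libraries and 45.0% over the 12 libraries without Z15303. Platelet marker genes (PPBP, PF4, ITGA2B, GP9 and TUBB1), which report platelets that remain among PBMCs, also summed highest in this animal, with all 5 detected. They reached 8120 CPM in its week12 library and 9770 CPM in its week18 library, the maximum of each time point. The minimum was 2880 CPM at week12 and 2700 CPM at week18, and the 5 pre-treatment libraries stood at 3310 to 6750 CPM. T cell markers summed to 1530 and 1590 CPM in these 2 libraries, within the range of 1220 to 1600 CPM over all libraries. NK and cytotoxic markers summed to 4240 and 4350 CPM there (3250 to 9770 over all libraries) and monocyte markers to 2890 and 2530 CPM (1830 to 4900), and no marker listed in the table was at 0 in every library. The part of platelets or of the low depth in these values was not tested.

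**Figure D2:**
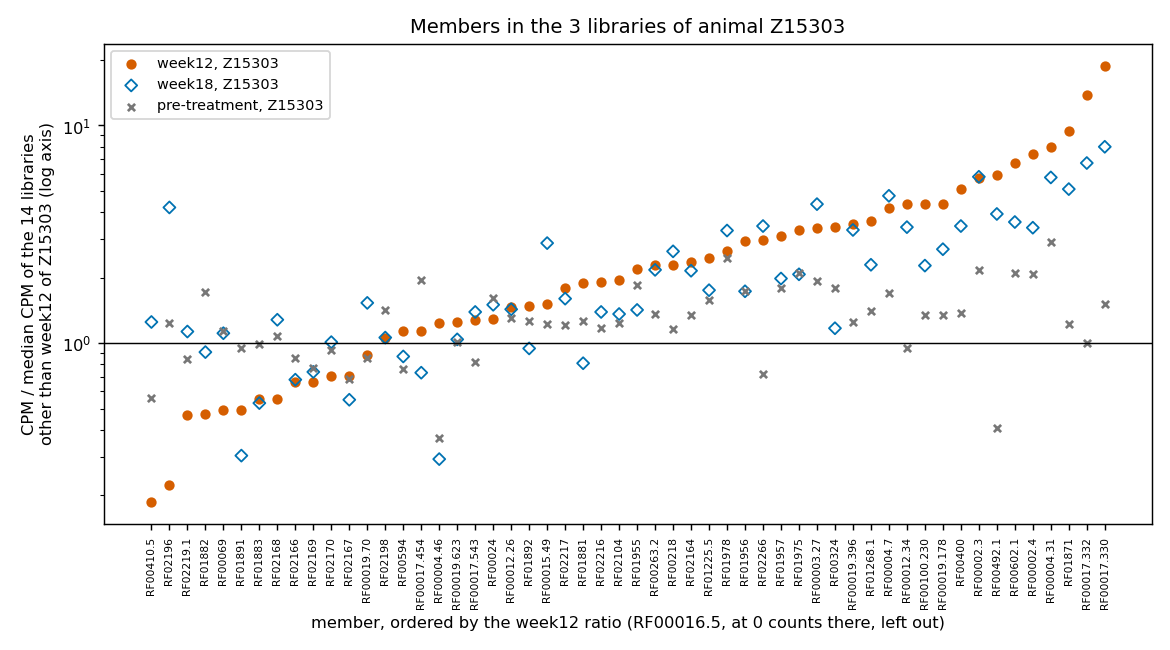
CPM of each member in the 3 libraries of Z15303 divided by a median over other libraries, on a log axis, with members ordered by the week12 ratio. The week12 values are divided by the median over the other 14 libraries. The pre-treatment and week18 values are divided by the median over the 12 libraries of the other animals. The axis label names only the divisor of the week12 values. Week12 ratios run from 0.186 for RF00410.5 to 18.8 for RF00017.330, and RF00016.5, without a count there, is left out.

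RF00069 is the accession of the SNORD24 family of C/D box snoRNAs, RNAs that guide methylation of the large ribosomal RNA. The member row held 217 counts over the 15 libraries. Before treatment it had 30 counts in Z15228, 16 in Z13076, 19 in Z15339, 18 in Z15303 and 15 in Z15408. At week12 the same animals gave 7, 7, 6, 5 and 10 counts, and at week18 they gave 11, 20, 18, 11 and 24. Every week12 count was thus at or below 10, and every other count above it. In CPM, pre-treatment libraries stood at 3.08, 1.80, 2.26, 1.99 and 1.71 in the same order of animals, week12 libraries at 0.726, 0.842, 0.661, 0.921 and 1.00, and week18 libraries at 1.42, 2.44, 2.01, 1.95 and 2.65. The week12 values overlapped neither those before treatment nor those at week18, while pre-treatment and week18 values overlapped each other.

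Mean CPM of RF00069 was 2.17 ± 0.55 (SD, n = 5) before treatment, 0.83 ± 0.139 (SD, n = 5) at week12 and 2.09 ± 0.477 (SD, n = 5) at week18. In edgeR the log2 fold change from pre-treatment was −1.38 (SE 0.30) at week12 and −0.05 (SE 0.28) at week18, and from week12 to week18 it was 1.33 (SE 0.30). It was lower at week12 in 5 of 5 animals and higher at week18 than at week12 in 5 of 5. Within animals the mean log2 change from pre-treatment to week12 was −1.03 in the 3 animals with shared dates and −1.35 in the 2 with their own, and from week12 to week18 it was 1.15 and 1.05. Without Z15303 the mean changes were −1.21 and 1.16 over the other 4 animals, beside −1.16 and 1.11 over all 5. Over all 12880 features tested, 0.163% lay lower at week12 without overlap with pre-treatment, and 0.0621% lay higher at week18 without overlap with week12. RF00069 was picked for this pattern, so nothing further is read from those shares.

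The rows next to RF00069 were read for comparison. The table gives no coordinates, but its rows run RF00309, RF00591, RF00152, RF00069, RF00284, ZBTB37, so RF00069 is listed among other Rfam-named rows. These neighbours were looked at after the values of RF00069 were known. RF00152 (SNORD79 family) had 0 to 7 counts per library and RF00284 (SNORD74 family) 0 to 9, both under the rule, and RF00309 and RF00591 had 0 to 2. Summed over the 5 animals, RF00152 had 23 counts before treatment, 16 at week12 and 12 at week18, and RF00284 had 27, 15 and 15. RF00284 was lower at week12 in 3 of 5 animals and higher at week18 than at week12 in 3 of 5. ZBTB37 was at 1.17 ± 0.588, 1.65 ± 0.599 and 1.31 ± 0.436 CPM (SD, n = 5) at the 3 time points and was higher at week12 in 4 of 5 animals.

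Among the members, RF00410.5 was the most like RF00069, with a correlation of 0.67 over the 15 libraries after the mean of each animal was taken off the log2 CPM. RF01978 followed with 0.66 and the U4 row RF00015.49 with 0.49. The libraries share animals and differ in depth, and these correlations are a description. RF00410 is the SNORA2 family of H/ACA box snoRNAs. RF00410.5 stood at 1.03, 0.902, 1.43, 0.554 and 1.71 CPM before treatment in Z15228, Z13076, Z15339, Z15303 and Z15408, at 0.415, 0.481, 0.331, 0.184 and 1.00 CPM at week12, and at 1.42, 0.975, 1.12, 1.24 and 0.774 CPM at week18. Its week12 counts were 4, 4, 3, 1 and 10 in the same order of animals. The week12 values overlapped those of the other time points only through the week12 library of Z15408. The log2 fold change of RF00410.5 was −1.14 (SE 0.44) at week12, lower in 5 of 5 animals, with an unadjusted p of 0.019 and an adjusted p of 1 by edgeR's quasi-likelihood test, so it was not called. For week 18 vs. week 12 it was 1.11 (SE 0.44), higher in 4 of 5 animals, with an unadjusted p of 0.023 by edgeR. RF00410.5 is described here for its likeness to RF00069, which was chosen on this pattern. These p-values are therefore no separate support for the pattern. RF01978 was at 3.44, 3.87 and 4.60 CPM in Z15303 and between 0.501 and 3.18 CPM in the other animals, and was lower at week12 in 4 of 5 animals.

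**Figure D3:**
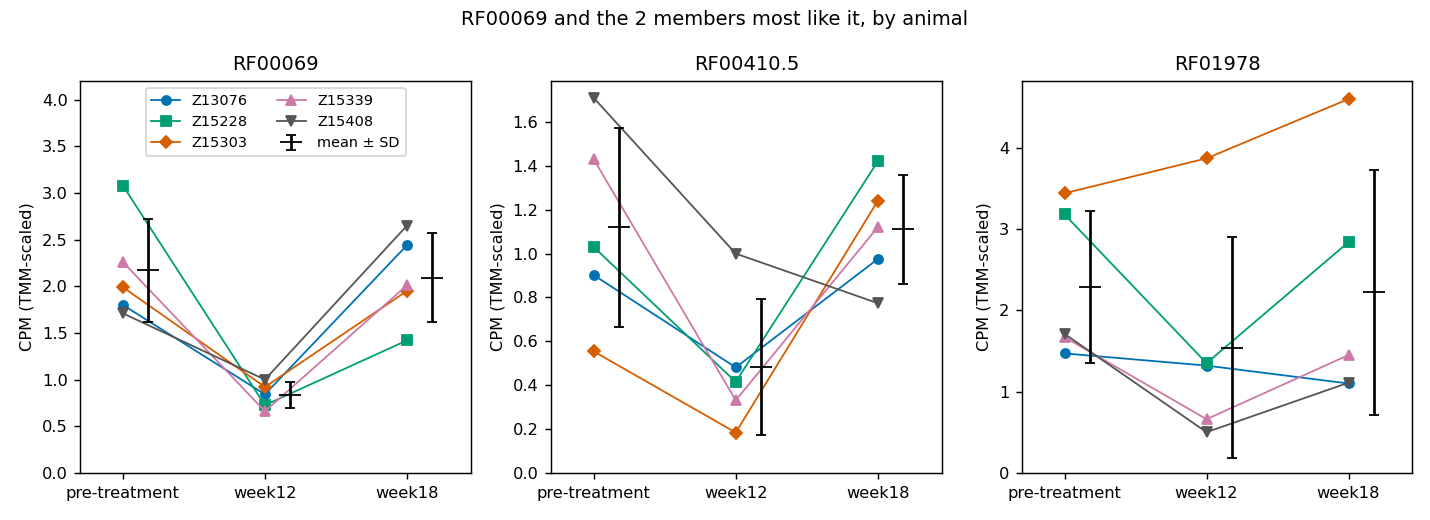
CPM of RF00069, RF00410.5 and RF01978 at the 3 time points, 1 line per animal, with the mean and SD of the 5 animals in black beside them. All 5 lines of RF00069 lie between 0.661 and 1.00 CPM at week12 and between 1.42 and 2.65 CPM at week18.

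The question of the main comparisons was whether ISL dosing and its end changed the level of the members. Of the 55 members, 53 passed edgeR's filter and were tested, and RF00016.5 and RF02219.1 were not. Leaving RF00069 aside, 0 of the other 52 were called at an adjusted p under 0.05 in any of the 3 comparisons by edgeR's quasi-likelihood test. Over all features tested the called share was 0% in each of the 3 comparisons. With the animal as a block, also 0 of the 52 members were called, against 0.00776% of all features at week12, 0.00776% at week18 and 0% between them. DESeq2's Wald test also called 0 of the 52 members other than RF00069 to which it gave an adjusted p, with and without the block. Over all features it called 0.00483% at week12, 0% at week18 and 0% between them without the block. With the block its shares were 0.202% (26 features), 0.334% (43) and 0.00776% (1). At an unadjusted p under 0.05, 3 members (5.77%) stood out at week12 against 1.61% of all features, 2 (3.85%) at week18 against 1.69%, and 1 (1.92%) between week12 and week18 against 0.505%. With the block these were 5 (9.62%) against 4.69%, 5 (9.62%) against 5.85% and 1 (1.92%) against 2.17%. The 3 at week12 were RF00410.5, RF00017.454 and RF00017.332, joined under the block by RF00015.49 and RF01978. The 2 at week18 were RF00017.454 and RF01883, joined under the block by the adjacent rows RF01955, RF01956 and RF01957. The log2 CPM of these 3 adjacent rows correlated at 0.92 to 0.98 over the 15 libraries. They are thus not 3 separate results, and the 9.62% at week18 counts them singly. RF00410.5 was the 1 member between week12 and week18 in both fits.

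Directions were mixed. At week12, 28 of the 52 members lay above pre-treatment and 24 below, with a median log2 fold change of 0.02 beside 0.00 over all features tested. At week18 it was again 28 above and 24 below, with a median of 0.04 beside 0.00. Between week12 and week18, 14 lay higher and 38 lower, with a median of −0.13 beside 0.00. With the animal as a block, 19 lay higher and 33 lower between them. Of all features tested without the block, 51%, 50.2% and 48.9% lay higher in the 3 comparisons. Without Z15303, 50 members were tested, with 24 above and 26 below pre-treatment at week12 and a median of −0.03. The split at week18 turned to 18 above and 32 below pre-treatment, with a median of −0.22 without this animal, and that between week12 and week18 became 22 higher and 28 lower, with a median of −0.05. Within animals, 39 of 52 members were higher at week12 in Z15303 and 33 in Z15339, but 26 in Z15408, 21 in Z15228 and 17 in Z13076. One member was higher in 5 of 5 animals at week12 and 1 lower (background 2.21% and 3.45%). At week18, 0 were higher and 5 lower than before treatment in 5 of 5 animals (3.04% and 3.49%), and between week12 and week18, 0 were higher and 1 lower (2.97% and 2.87%). The members' shares were 1.92% at week12 in each direction, 9.62% for those lower at week18, and 1.92% for the one lower at week18 than at week12.

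**Figure D4:**
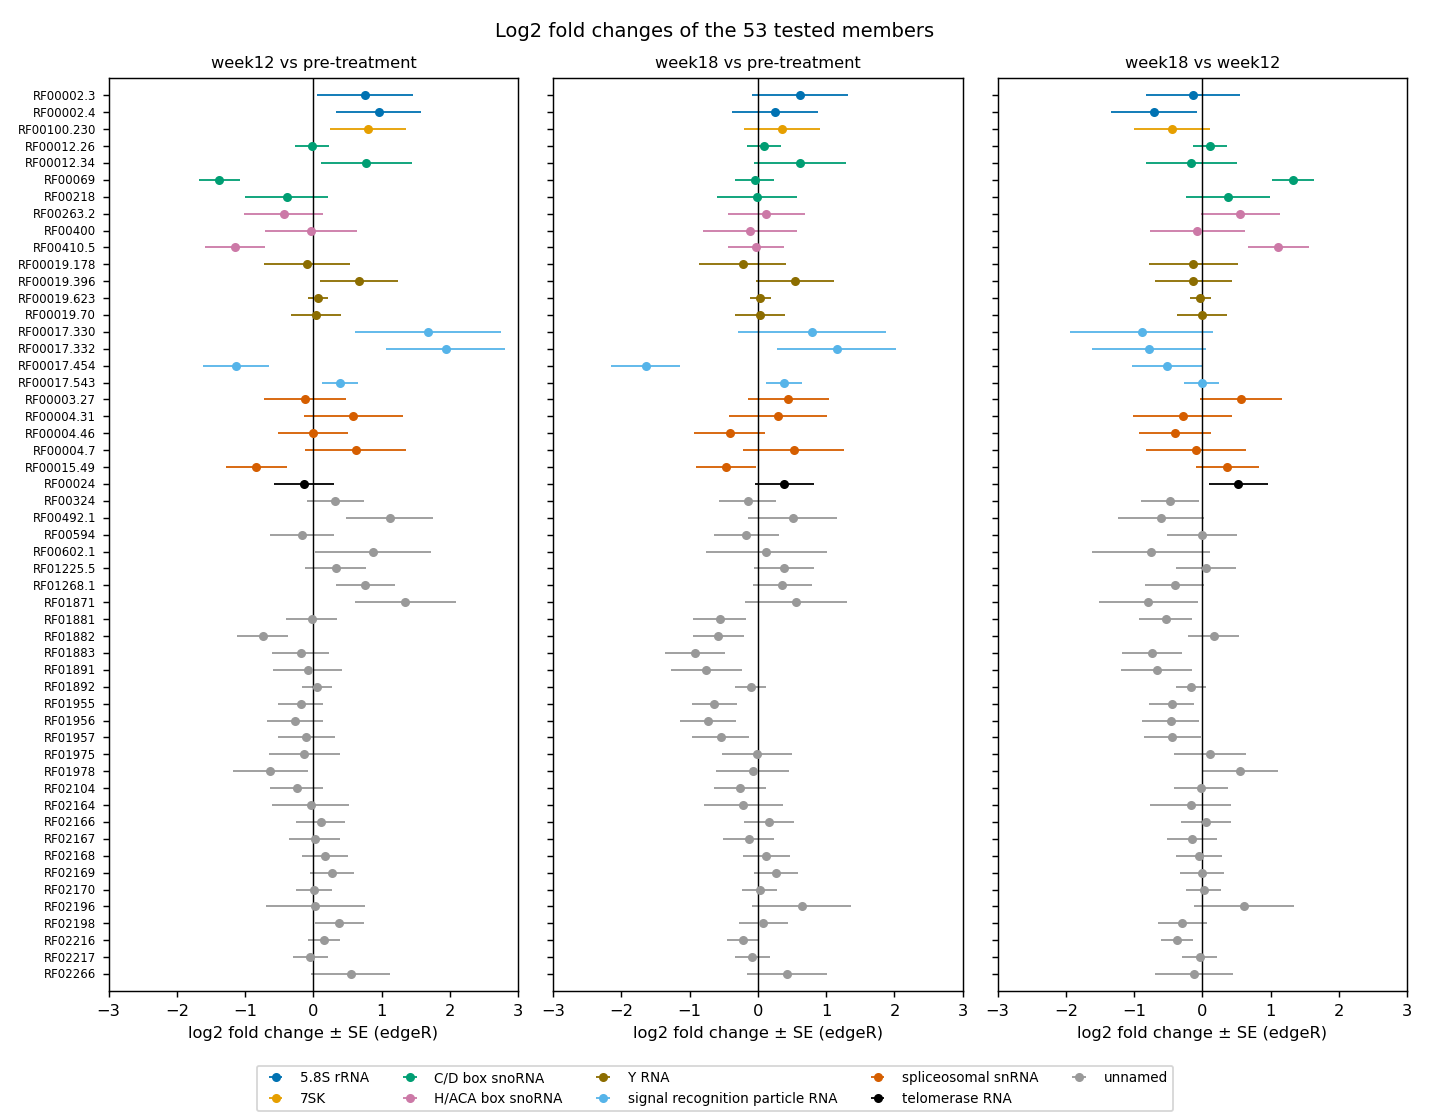
edgeR log2 fold changes with their standard errors for the 53 tested members in the 3 comparisons, coloured by RNA class. The points scatter on both sides of 0 in each panel, with RF00069 at −1.38, −0.05 and 1.33.

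The 4 SRP RNA copies differed in direction, though none was called. RF00017.543 was the one member higher at week12 in 5 of 5 animals, at 3.74 ± 0.451 CPM before treatment, 4.91 ± 0.56 CPM at week12 and 4.87 ± 1.73 CPM at week18 (SD, n = 5). Its log2 fold change at week12 was 0.39 (SE 0.26), with an adjusted p of 1 by edgeR. RF00017.332 had the largest positive log2 fold change at week12, 1.94 (SE 0.87, unadjusted p 0.040, adjusted p 1 by edgeR). It stood at 29.3 CPM in Z15303 and at 1.20 to 3.75 CPM in the other 4 animals at week12, against 0.798 to 3.08 CPM before treatment, and its mean change within animals was 0.96 with Z15303 and 0.28 without it. In edgeR the log2 fold change was 0.29 without Z15303. RF00017.330 likewise had 18.6 CPM at week12 and 7.62 CPM at week18 in Z15303, with 0.100 to 2.03 CPM in the libraries of the other animals. RF00017.454 went the other way. Its pre-treatment values were 1.85, 1.24, 0.834, 1.88 and 5.13 CPM in Z15228, Z13076, Z15339, Z15303 and Z15408, its week12 values 1.24, 0.722, 1.10, 1.11 and 0.801 CPM, and its week18 values 0.776, 1.22, 0.224, 0.708 and 0.553 CPM. The log2 fold change of RF00017.454 at week18 was −1.64 (SE 0.50), with an unadjusted p of 0.00487 and an adjusted p of 1 by edgeR, lower in 5 of 5 animals. At week12 it was −1.13 (SE 0.48), with an unadjusted p of 0.033 by edgeR, lower in 4 of 5. The pre-treatment library of Z15408 lay far above the others, and without this animal the log2 fold changes were −0.98 at week18 and −0.47 at week12.

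The U2 row RF00004.31 was high in a few libraries. It stood at 12.7 to 28.0 CPM in the other libraries, but at 55.6 CPM before treatment in Z13076 and at 53.3, 157 and 106 CPM in the 3 libraries of Z15303. Its means were 30.7 ± 21.8, 46.6 ± 61.8 and 38.0 ± 38.3 CPM (SD, n = 5). These SDs give the spread between animals and not that of the change within them. From pre-treatment to week12 it fell from 55.6 to 14.1 CPM in Z13076 and rose from 53.3 to 157 CPM in Z15303. In Z15228, Z15339 and Z15408 it rose from 18.2 to 22.6, from 13.8 to 21.2 and from 12.7 to 18.4 CPM. RF00004.46, another U2 row, was below its pre-treatment value at week18 in every animal (log2 fold change −0.42, SE 0.52), with −0.25 without Z15228 and −0.63 without Z15408. The U4 row RF00015.49 was at 2.09 ± 0.563 CPM before treatment, 1.20 ± 0.665 CPM at week12 and 1.54 ± 1.03 CPM at week18 (SD, n = 5), with a log2 fold change at week12 of −0.83 (SE 0.45). Summed over the 5 spliceosomal members, the mean log2 change within animals was 0.13 ± 1.29 (SD, n = 5) at week12 and −0.23 without Z15303.

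Other abundant classes leaned on Z15303 as well. The 2 rows of 5.8S ribosomal RNA, a part of the large ribosomal subunit, summed to 47.1 ± 21.6 CPM before treatment, 91.6 ± 116 CPM at week12 and 57.3 ± 45.3 CPM at week18 (SD, n = 5). The week12 library of Z15303 held 298 CPM while the other 4 held 25.7 to 52.9, and the mean log2 change at week12 was 0.44 with this animal and 0.08 without it. The 7SK copy RF00100.230 was at 15.5 CPM in that library and at 1.08 to 4.96 CPM in the other week12 libraries. Its means were 3.27 ± 1.48, 5.82 ± 5.64 and 4.21 ± 1.91 CPM (SD, n = 5). The 4 Y RNA copies summed to 35.8 ± 6.98, 45.5 ± 23.5 and 42.9 ± 18.7 CPM (SD, n = 5). One Y copy, RF00019.396, ran from 4.31 to 58.2 CPM over the libraries, while another, RF00019.623, was at 13.7 ± 1.56, 14.4 ± 2.69 and 14.1 ± 1.46 CPM (SD, n = 5).

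Among the snoRNAs, U3 guides early cleavage of the ribosomal RNA precursor and not its methylation. The U3 row RF00012.26 was at 17.0 ± 4.25 CPM before treatment, 16.8 ± 5.9 CPM at week12 and 18.1 ± 4.3 CPM at week18 (SD, n = 5). It was lowest before treatment in Z15339, at 9.54 CPM, and highest at week12 in Z15303, at 24.7 CPM. The 5 C/D box members summed to 22.8 ± 4.0, 21.7 ± 7.81 and 24.2 ± 6.68 CPM (SD, n = 5), but the 2 U3 rows held 2403 of the 2849 counts, so this sum mostly follows U3. RF00016.5, of the SNORD14 family, was at 1.17 ± 0.433, 0.769 ± 0.505 and 0.708 ± 0.58 CPM (SD, n = 5) and lay lower at week12 in 4 of 5 animals and at week18 in 4 of 5. RF00218, of the SNORD46 family, was at 0.999 ± 0.288, 0.797 ± 0.629 and 1.02 ± 0.728 CPM (SD, n = 5). The 3 H/ACA box members summed to 4.58 ± 2.31, 3.72 ± 3.26 and 4.55 ± 2.42 CPM (SD, n = 5) and were lower at week12 in 4 of 5 animals, all but Z15303, with a mean log2 change of −0.53 ± 1.12 (SD, n = 5) and of −1.03 without Z15303. RF00400, of the SNORA28 family, made up much of that sum and reached 5.70 CPM before treatment in Z15408 and 7.0 CPM at week12 in Z15303. Telomerase RNA was at 0.944 ± 0.491, 0.860 ± 0.237 and 1.24 ± 0.526 CPM (SD, n = 5), and was higher at week18 than before treatment in 4 of 5 animals.

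Several unnamed members came in runs of adjacent rows. RF01955, RF01956 and RF01957 stand next to each other in the table and held 7962 counts together, 20.7% of the members' total. Their log2 CPM correlated at 0.92 to 0.98 over the 15 libraries, against a median of 0.14 over the 1485 pairs of members. Correlations between libraries of shared depth and animals are given as a description. RF01956 was lower at week18 than before treatment in 5 of 5 animals. Its pre-treatment values were 15.2, 14.9, 15.5, 22.8 and 31.3 CPM in Z15228, Z13076, Z15339, Z15303 and Z15408, its week12 values 13.3, 9.98, 12.9, 39.1 and 8.92 CPM, and its week18 values 6.21, 13.4, 10.5, 22.7 and 7.96 CPM. The drop in Z15303 was only from 22.8 to 22.7 CPM, and the time points overlapped. The log2 fold change of RF01956 was −0.73 (SE 0.41) with an adjusted p of 1 by edgeR, and −0.82 (SE 0.28) with an adjusted p of 0.615 with the animal as a block. RF01955 was −0.64 (SE 0.33) and RF01957 was −0.55 (SE 0.42) in the same comparison, lower in 4 and 3 of 5 animals. Without Z15408, whose pre-treatment value of RF01956 was the highest of the 5, the log2 fold changes without the block were −0.50 for RF01955, −0.38 for RF01956 and −0.25 for RF01957. RF01871, 2 rows on, was at 21.0 CPM at week12 and 11.2 CPM at week18 in Z15303 and at 1.08 to 4.71 CPM in all libraries of the other animals.

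**Figure D5:**
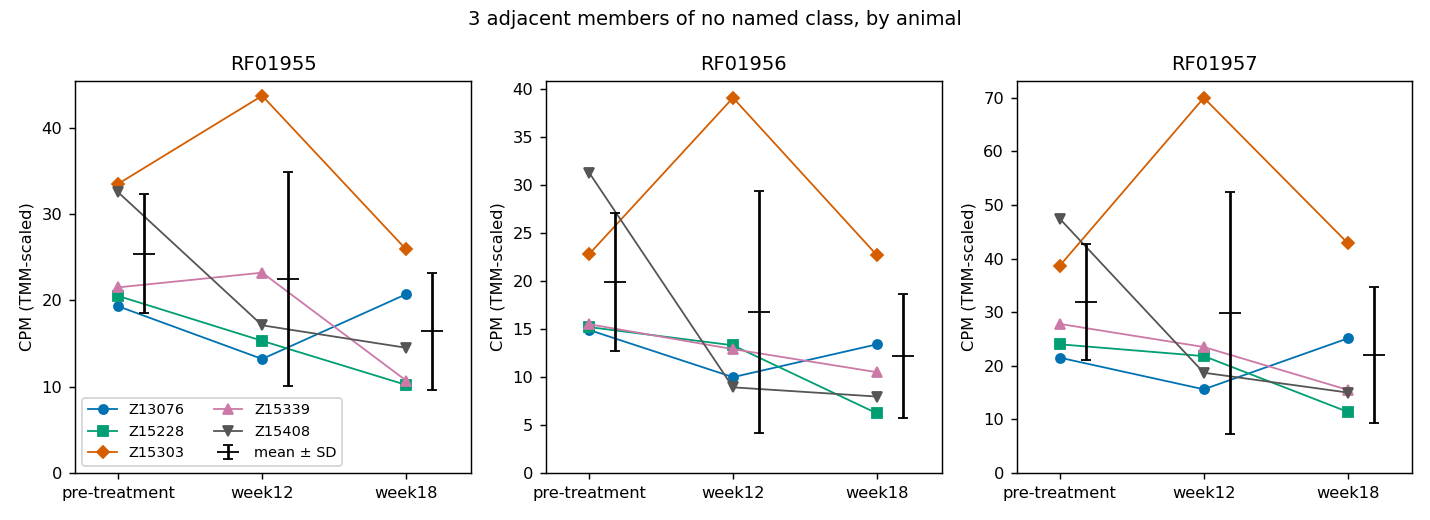
CPM of the adjacent members RF01955, RF01956 and RF01957 at the 3 time points, 1 line per animal, with the mean and SD of the 5 animals in black beside them. The 3 panels have like shapes, and Z15303 is highest in each at week12, at 43.7, 39.1 and 70.0 CPM.

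Other runs were less alike. RF02164 and RF02166 to RF02170 lie within 9 rows and held 1667 counts on 6 members, and their pair correlations ran from −0.42 to 0.42. Their sum stayed between 10.1 and 17.1 CPM in all 15 libraries, Z15303 included. RF01892, RF01891, RF01883 and RF01882 lie within 5 rows and had pair correlations of −0.08 to 0.67. RF01883 was the member of this run that was lower at week18 in 5 of 5 animals, at 1.59 ± 0.496 CPM before treatment, 1.37 ± 0.79 CPM at week12 and 0.828 ± 0.31 CPM at week18 (SD, n = 5). The log2 fold change of RF01883 was −0.92 (SE 0.43) with an adjusted p of 1 by edgeR, and 0.824 with the block. RF01881 was also lower at week18 in every animal (log2 fold change −0.56, SE 0.38). RF00492.1 was lower at week18 than at week12 in every animal (log2 fold change −0.61, SE 0.63), and it was at 4.79 CPM at week12 in Z15303 against 0.601 to 1.87 CPM in the others.

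Genes whose products make or bind these RNAs, and genes known in human to hold snoRNAs in their introns, were read from the same fit. Of 126 list entries, 90 were tested and 0 were called in any of the 3 comparisons by edgeR's quasi-likelihood test, without or with the block. Without the block, at an unadjusted p under 0.05 by edgeR, there were 0 at week12, 1 at week18 and 0 between them. Over all features tested these shares were 1.61%, 1.69% and 0.505%. All 16 host genes tested lay above pre-treatment at week12, with a median log2 fold change of 0.12, and 13 of 16 at week18, with a median of 0.10. Of all features tested, 51% lay above pre-treatment at week12 and 50.2% at week18. With the block the host genes above pre-treatment were 14 and 12 of 16. Without Z15303 they were 10 of 16 with a median of 0.03 and 5 of 16 with a median of −0.05, so this lean of the hosts rested on that animal. EIF4A1, a translation initiation helicase and snoRNA host, was the one entry with an unadjusted p under 0.05 without the block, at 220 ± 14.6 CPM before treatment and 259 ± 19.5 CPM at week18 (SD, n = 5), with a log2 fold change of 0.23 (SE 0.10, adjusted p 1 by edgeR). With the block GTF3C4, a subunit of the RNA polymerase III factor TFIIIC, joined it at week18 with an unadjusted p of 0.0366 and an adjusted p of 0.825 by edgeR, and between week12 and week18 with an unadjusted p of 0.0391 and an adjusted p of 1 by edgeR. GTF3C4 was at 18.2 ± 2.6, 18.1 ± 1.42 and 14.8 ± 3.22 CPM (SD, n = 5), lower at week18 than before treatment in 5 of 5 animals and lower than at week12 in 4 of 5. Only 16 of the 39 host genes listed could be read under the names used, and RPL7A, GAS5 and SNHG1 were not among them. Among the 7 snoRNP proteins, 5 lay above pre-treatment at week12, among them FBL, the methyltransferase of C/D box snoRNPs, at 68.7 ± 18.1 and 86.6 ± 30.0 CPM (SD, n = 5), and DKC1, the pseudouridine synthase of H/ACA snoRNPs, at 48.7 ± 3.67 and 55.8 ± 5.12 CPM (SD, n = 5). The 18 snRNP proteins split 11 to 7, the 7 partners of 7SK 4 to 3, the 5 SRP proteins 4 to 1, the 8 RNase P and MRP proteins 6 to 2 and the 25 RNA polymerase III genes 14 to 11. Both Y RNA binding genes split 1 to 1, and all 3 vault genes lay below pre-treatment, with a median of −0.12. The B cell markers MS4A1, CD79A, CD79B, BLK and BANK1 were each lower at week12 and at week18 in 5 of 5 animals. With the block in edgeR their adjusted p was 0.0534 or more, and their unadjusted p was 0.000365 or less. The authors' own DESeq2 analysis lists all 5 as underexpressed at week 12 of dosing. MS4A1, which encodes the B cell surface protein CD20, was at 77.1 ± 65.5, 35.0 ± 28.2 and 34.1 ± 27.3 CPM (SD, n = 5) at the 3 time points. The part of B cells in the members' values was not tested.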

How the data were processed

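PBMC RNA was reverse transcribed and amplified with SMART-Seq v4 and sequenced. The authors aligned the reads with STAR 2.7.9a to the Ensembl *M. nemestrina* annotation and deposited raw read counts per feature from STAR's GeneCounts option, without a filter or normalization. GeneCounts keeps uniquely mapped reads, and the strand setting is not given in the sources used here. Animals and time points came from the labels.

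Counts were scaled by TMM and tested with edgeR 4.0.16 in R 4.3.3 (quasi-likelihood test, 15 libraries, time point alone in the model) after filterByExpr (minimum count 10), which left 12880 features. Adjusted p-values are Benjamini-Hochberg values over these, called under 0.05, and each SE was taken from the fold change and its F statistic. As this model leaves the animal out, its SEs are not those of the change within animals. Changes within animals are differences of log2 CPM with a prior count of 2. The fit was tested on simulated counts.

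The members and gene lists were chosen with earlier results of these data known. Named members moved the same way in 5 of 5 animals (up to 5 each way), held the most counts of a class, lay at the edge of the rule or were the 3 most like RF00069. Those with an unadjusted p under 0.05 and all others named were chosen after their values were seen.

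The labels pair libraries by animal, and deviations from the time point means correlated at 0.351 to 0.683 in the 15 same-animal pairs, against a mean of −0.137 in 60 other pairs. Alternatives were the animal block, DESeq2 1.42.0, other scalings, no filter, summed copies and leaving out each animal. With 1 library per animal and time point, p-values measure the spread between these libraries. Results for items withheld for evaluation are not reported here.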

Additional observations from a re-analysis of the deposited data

Results flagged for a closer look

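Within each time point, 96 sets of 5 values were checked for a library whose gap to the nearest of the others exceeded Dixon's critical value of 0.71 of the range, and 30 did. Chance alone flags about 1 in 20 such groups, but the sets share libraries, and class sums stood beside their own members. Some members were taken in after their values were seen, among them RF00017.330 for its ratio in the week12 library of Z15303. The 30 are therefore a description and are not weighed against chance. Of the 30, 18 were the week12 library of Z15303 and 8 its week18 library.

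The members' share of counts was 0.0902% in the week12 library of Z15303, against 0.0203% to 0.0264% in the other week12 libraries, and 0.0555% in its week18 library, against 0.0199% to 0.0257%. By class, the week12 library of Z15303 held 298 CPM of 5.8S rRNA (the others 25.7 to 52.9), 168 CPM of spliceosomal RNA (16.0 to 27.4), 85.9 CPM of Y RNA (28.8 to 44.3), 54.4 CPM of SRP RNA (7.34 to 10.4), 15.5 CPM of 7SK (1.08 to 4.96) and 9.40 CPM of H/ACA box snoRNA (1.32 to 3.41). Its week18 library held 117 CPM of spliceosomal RNA (17.6 to 33.8) and 28.3 CPM of SRP RNA (6.04 to 11.5).

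By member, the week12 library of Z15303 stood apart for RF00002.4 at 286 CPM, RF00004.31 at 157 CPM, RF01957 at 70.0 CPM, RF00019.396 at 58.2 CPM, RF01956 at 39.1 CPM, RF00017.332 at 29.3 CPM, RF01871 at 21.0 CPM, RF00017.330 at 18.6 CPM, RF00100.230 at 15.5 CPM, RF00400 at 7.0 CPM and RF01978 at 3.87 CPM. The week18 library of Z15303 stood apart for RF00004.31 at 106 CPM, RF00017.332 at 14.2 CPM, RF01871 at 11.2 CPM, RF00017.330 at 7.62 CPM and RF00015.49 at 3.36 CPM.

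The other 4 were pre-treatment libraries. Z15339 was low for the C/D box snoRNA sum, at 15.7 CPM against 23.8 to 25.5, and for its U3 row RF00012.26, at 9.54 CPM against 18.0 to 20.3. Z15408 was high for RF00400, at 5.70 CPM against 0.954 to 2.15, and for RF00017.454, at 5.13 CPM against 0.834 to 1.88.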

How the results depend on the processing

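Under the replicate block by animal, 0 of the members other than RF00069 were called in any of the 3 comparisons, as without it, and the block changed no call of the host and partner genes. The same count of 0 held with DESeq2's Wald test with the block (26, 43 and 1 of 12880 features called) and without it (1, 0 and 0), with library size alone, with DESeq2's size factors in edgeR, with no filter on low counts, with copies summed, and without each animal in turn (0 to 0). The log2 fold changes of the named members other than RF00069 kept their sign under every alternative run for them, and copies were not summed for members with a numbered copy, since the sum is another quantity. RF00017.332 ranged most, from 0.29 without Z15303 to 2.42 at week12, and RF00017.454 ranged from −2.10 to −0.98 at week18. RF00069 ranged from −1.53 to −1.16 for week 12 vs. pre-treatment, from −0.22 to 0.23 for week 18 vs. pre-treatment and from 1.07 to 1.39 for week 18 vs. week 12, where 1.07 came from adding its second copy. The number of members was 33 with at least 10 counts in 10 libraries, 96 with at least 5 counts in 5 libraries and 70 with at least 10 counts in 3 libraries, against 55. Of 24 mean log2 changes of RNA classes, 14 took the other sign under at least 1 of library size alone, all rows of their accessions, and leaving out each animal in turn, which was added after the data were seen. Without Z15303 the SRP sum at week12 went from 0.47 to −0.06 and the spliceosomal sum from 0.13 to −0.23, and with all rows the H/ACA box sum between week12 and week18 went from 0.45 to −0.14. The median member had 217 counts over 15 libraries, and a library without a count does not exclude an expected count of up to about 3.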
